A study of Mus musculus with 12 samples.

Results

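NAD+ is the redox cofactor that cells build either from tryptophan (Trp) through the kynurenine route or from vitamin B3 forms that are taken up or recycled. Salvage returns nicotinamide, which NAD+-consuming enzymes release, to NAD+ by way of nicotinamide mononucleotide (NMN). The liver is the organ best known for running the de novo route from Trp. The 10 genes described here act in salvage, phosphorylation and use of NAD+. They were taken as a named list (Nampt, Nmnat1, Nmnat3, Nadsyn1, Nadk, Nadk2, Nnmt, Nmrk1, Cd38 and Sirt1), each matched by its symbol among the 24062 gene symbols counted, and all 10 were found.

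RNA-seq counts were available for 12 libraries, 1 per mouse, in 4 groups of 3. MYC-ON livers came from male FVB mice with LAP-tTA, which is active in liver, and a TRE-MYC transgene carrying human MYC on the Y chromosome. These mice had been kept without doxycycline since birth, so the transgene was switched on under both diets. The paper reports lower MYC expression in No-Trp than in control livers, though still above wild-type livers. It also reports fewer and smaller tumors under the No-Trp diet, so tumor content may differ between the liver groups. For MYC-driven livers it reports less NAD+ and lower expression of enzymes that make NAD+ without Trp. The part of MYC level and tumor content in the liver diet comparison was not tested. Xenografts were subcutaneous tumors in NOD SCID hosts, which the paper's methods give as female, with experiments also repeated in males. All were raised from the one mouse liver cancer line HCC53N, which has lost p53 and has a mutant Nras. The labels call the tumor cells MYC-ON as well, while the paper's methods name no MYC transgene for this line. The meaning of that label was not settled here. Each model had a control diet group and a No-Trp diet group, both fed for 21 days. Because tumor and host are both mouse, reads of host cells cannot be separated. Strain, site and cell line differ together between the models, as does sex where hosts were female, and cannot be told apart.

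Reads counted on genes ranged from 14660963 to 26085349 per library. Control liver 101 stood apart, with 12.1% of its counts on Rn45s, a ribosomal RNA gene, against 0.261% to 2.22% in the other 11 libraries. Livers 101 and 108 and control xenografts 41 and 43 carry a mark of resubmission. No resubmitted library is in the No-Trp xenografts. Mouse Trp53 was at 17.5 to 23 CPM in xenografts, 115 to 133 CPM in control livers and 46.6 to 75 CPM in No-Trp livers. Nras was at 235 to 484 CPM in xenografts, 89.2 to 106 CPM in control livers and 46.6 to 66.2 CPM in No-Trp livers. CPM are reads of a gene relative to the library total, scaled by composition factors. Mouse Myc was at 167 to 276 CPM in xenografts, 29.1 to 38 CPM in control livers and 33.3 to 126 CPM in No-Trp livers. Whether reads of the human transgene enter the liver values was not tested. The summed level of 10 hepatocyte markers was 10600 to 136000 CPM in livers and 663 to 1430 CPM in xenografts, so these markers were low in the tumors. In bulk tissue, fewer cells of a type and less RNA per cell cannot be told apart.

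The 250 bases before the RefSeq start (GRCm38.p6) of the pair of salvage and synthesis genes that passed the liver test and have an entry are shown, since both rose under the No-Trp diet. Capitals mark GGGCGG on either strand, a GC-rich element of many promoters. The E-box CACGTG, which clock proteins bind and which was also searched on both strands, has no match in either window.
Nampt, chr12:32820085-32820334, plus strand: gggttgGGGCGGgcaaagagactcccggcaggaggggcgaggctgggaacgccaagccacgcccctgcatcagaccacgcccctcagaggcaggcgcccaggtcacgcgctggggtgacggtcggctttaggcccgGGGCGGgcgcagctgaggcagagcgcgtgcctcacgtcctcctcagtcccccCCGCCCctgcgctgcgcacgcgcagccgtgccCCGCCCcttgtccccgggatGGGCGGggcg
Nadsyn1, chr7:143822853-143823102, minus strand: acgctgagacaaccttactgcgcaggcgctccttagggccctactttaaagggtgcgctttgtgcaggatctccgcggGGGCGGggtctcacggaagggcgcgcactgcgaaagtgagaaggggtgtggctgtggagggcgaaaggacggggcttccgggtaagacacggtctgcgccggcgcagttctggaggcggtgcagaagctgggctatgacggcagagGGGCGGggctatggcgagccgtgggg
Neither window overlaps an annotated exon, but the Nampt window lies inside the annotated span of that gene (chr12:32819545-32853349). GGGCGG was found 5 times before Nampt and 2 times before Nadsyn1, and 32.7% of all 32851 windows of this length hold it. CACGTG is held by 6.02% of them. Among the other genes of the 10 it was found 2 times before Sirt1 and 1 time before the start of Nadk numbered 2. Of the 10 genes, 8 had an entry, and Nnmt and Nadk2 had none.

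In MYC-ON livers, 9 of the 10 genes had a fitted log2 fold change above 0 under the No-Trp diet, against 49.8% of all genes. Nmnat3, at 0.01, is among these 9. The test was passed by 3 of 10, all higher: Nampt, Nadsyn1 and Nnmt. The median log2 fold change of the 10 was 0.53, against 0 for all genes tested. Among all 14122 genes, 25.3% passed, and 13.3% passed and were higher, so the share of the 10 genes that passed is near the background. The calls also depended on which livers were in the fit. Leaving out 1 of the 6 livers gave 0 of the 10 genes passing in 5 of the 6 fits, and 2 (Nampt and Nnmt) without control liver 102. The share of all genes that passed also fell in those 5 fits, to between 0.0562% (without control liver 103) and 19.3% (without No-Trp liver 108). Without control liver 102 that share was 28.9%. With only the livers that lack the mark of resubmission 0 of the 10 passed, as did 0 of all 14198 genes tested there. With library totals in place of composition factors Sirt1 alone passed. That scaling moved the share of higher calls among all genes from 52.5% to 30.9%. The direction of Nmnat3, whose log2 fold change was 0.01, turned under some of these settings.

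Nampt (chr12:32819545-32853349) makes NMN from nicotinamide and sets the pace of salvage. Its level in the control livers was 156, 226 and 185 CPM in mice 101, 102 and 103, and in the No-Trp livers 277, 313 and 285 CPM in mice 105, 107 and 108. Each No-Trp liver lay above each control liver. The log2 fold change was 0.65 (SE 0.187, adjusted p = 0.0435). Over 15 alternative fits it ran from 0.34 to 0.78, with adjusted p from 0.0175 to 0.293. Nampt shares its strand with the lincRNA Gdap10, which had 9 to 69 counts against 1699 to 5113 for Nampt.

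Nmrk1 (chr19:18631950-18652428), which phosphorylates nicotinamide riboside to NMN, was at 56, 57.5 and 33.1 CPM in control livers and at 68.2, 104 and 54.7 CPM in No-Trp livers. The ranges overlapped, and the log2 fold change of 0.65 (SE 0.302) did not pass (adjusted p = 0.145). The Nmnat enzymes turn NMN into NAD+. The nuclear Nmnat1 (chr4:149467572-149485202) was at 10.2, 13.9 and 11 CPM in control livers and 13.5, 18.5 and 18.9 CPM in No-Trp livers, overlapping between diets (log2 fold change 0.56, SE 0.232, adjusted p = 0.113). The mitochondrial Nmnat3 (chr9:98287435-98420438) was at 10.8, 13.8 and 11 CPM and at 12.3, 12.2 and 10.9 CPM, with a log2 fold change of 0.01 (SE 0.206, adjusted p = 0.969). The interval of its change ran from -0.47 to 0.5. Nmnat1 overlaps Tmem274 on the other strand and Nmnat3 overlaps the pseudogene Gm28530, and the strand setting of the counting is not given in the sources used here.

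Nadsyn1 (chr7:143795584-143822849), the synthetase that ends both the de novo and the nicotinic acid route, was at 51.7, 51.5 and 43.8 CPM in control livers and at 66.9, 64.6 and 72.6 CPM in No-Trp livers. The groups did not overlap. It rose by a log2 fold change of 0.49 (SE 0.141, adjusted p = 0.0421), with adjusted p from 0.0299 to 0.467 over the alternatives. No fit that left out a single liver kept it past the threshold.

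The NAD kinases make NADP+. The cytosolic Nadk (chr4:155562378-155591001) was at 242, 336 and 274 CPM in control livers and 364, 447 and 371 CPM in No-Trp livers. These groups did not overlap, but the log2 fold change of 0.50 (SE 0.2) had an adjusted p of 0.104. The mitochondrial Nadk2 (chr15:9071260-9110891) was at 160, 227 and 192 CPM and at 217, 290 and 212 CPM, with overlapping groups (log2 fold change 0.33, SE 0.208, adjusted p = 0.261).

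Nnmt (chr9:48591877-48605153), which methylates nicotinamide and so takes it out of salvage, had the largest fold of the 10 in livers and the fewest counts. Control livers held 25, 26 and 15 reads (1.2, 1.46 and 0.601 CPM) and No-Trp livers 46, 40 and 119 reads (2.63, 2.45 and 9.17 CPM). No-Trp liver 108 was far above the other No-Trp livers. The log2 fold change was 2.15 (SE 0.637, adjusted p = 0.0465), and without liver 108 it was 1.26 (adjusted p = 0.102). It was the only one of the 10 that also passed the fold threshold of the study, a log2 fold change of 1, which 16.5% of all genes passed together with the adjusted p.

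Of the NAD+ consumers, Cd38 (chr5:43868553-43912375), a surface glycohydrolase known from immune cells, was at 11.7, 15.8 and 13.9 CPM in control livers and 23.3, 20 and 19.2 CPM in No-Trp livers. The groups did not overlap, and the log2 fold change of 0.62 (SE 0.198) had an adjusted p of 0.0571. It was past the threshold with DESeq2 (adjusted p = 0.0346) and with the mark of resubmission as a covariate (adjusted p = 0.0428). Sirt1 (chr10:63319005-63381704), an NAD+-dependent deacetylase, was at 36.2, 29.3 and 37.6 CPM in control livers and 23.3, 28.7 and 21 CPM in No-Trp livers. It had a lower level under the No-Trp diet (log2 fold change -0.48, SE 0.194, adjusted p = 0.108), again without overlap. In all, 6 of the 10 genes had groups that did not overlap in livers, 5 of them higher, against 48.7% of all genes. Cd38 and Sirt1 both overlap antisense genes.

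**Figure D1:**
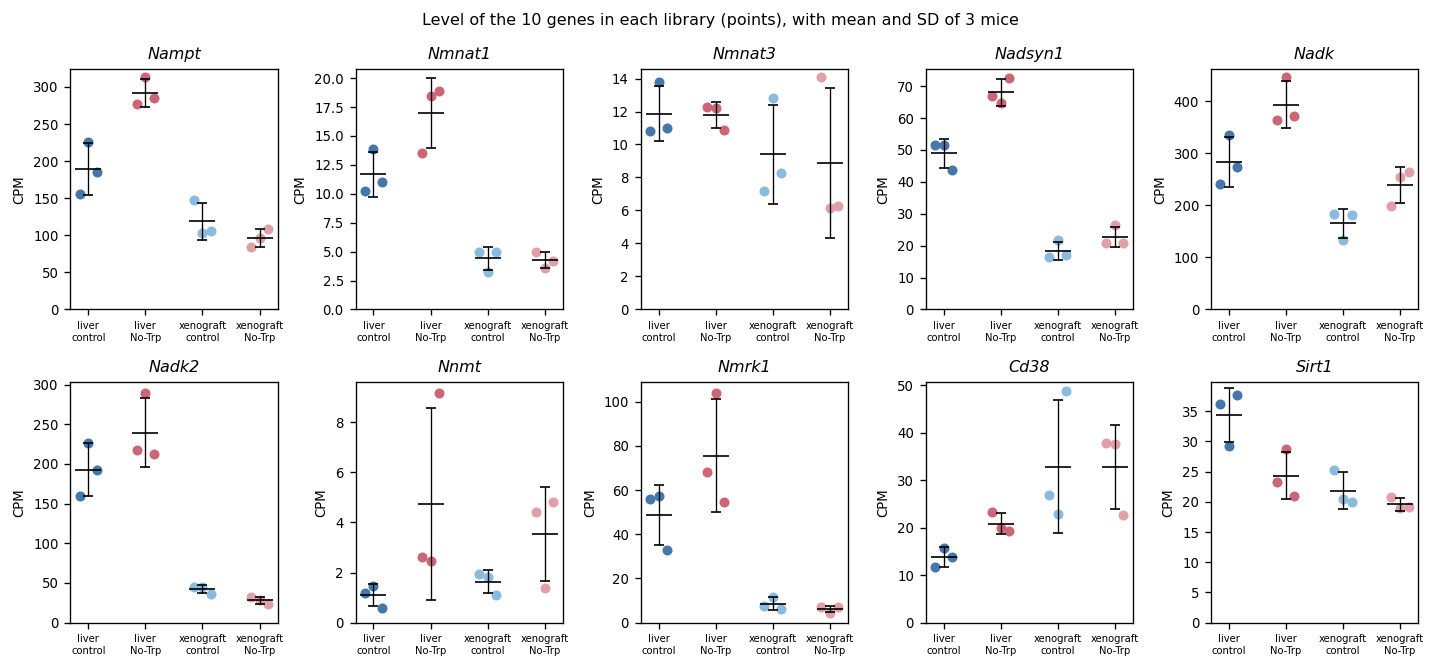
Level of each of the 10 genes in CPM (vertical axis, from 0) in the 12 libraries, by model and diet, with points for mice and a bar for the mean and SD of 3 mice. Nampt in No-Trp livers sits at 277 to 313 CPM, above the control livers at 156 to 226 CPM, and both xenograft groups lie lower.

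Markers of other cells moved with diet in the same livers. The summed hepatocyte markers were at 10600 to 41800 CPM in control livers and at 54900 to 136000 CPM in No-Trp livers, with 5 of 10 passing, all higher. Of 8 erythroid markers, 7 passed and fell, with sums of 74.1 to 719 CPM and 17.7 to 31.5 CPM. The 10 leukocyte markers, which matter for Cd38, had sums of 131 to 191 CPM and 142 to 172 CPM, and none of the 9 tested passed edgeR's test, nor an unadjusted p under 0.05. Of 10 macrophage markers, 1 passed (Vsig4). Endothelial markers summed to 106 to 207 CPM and 223 to 365 CPM, without overlap, and 2 of 8 passed, both higher (Clec4g, log2 fold change 1.97, and Tek, 1.18). Of 9 stellate or fibroblast markers, 2 were higher (Dcn, 1.91, and Rgs5, 1.22) and 1 lower (Col1a2, -0.51). None of these markers was at 0 throughout a group. The part of these cells in the changes above was not tested.

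**Figure D2:**
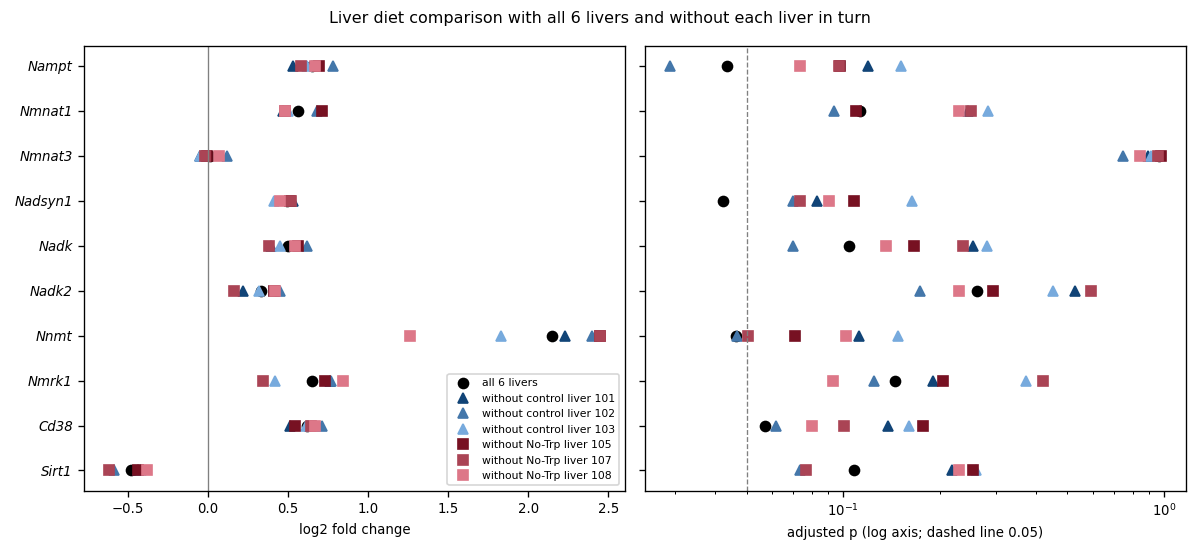
Log2 fold change (left) and adjusted p on a log axis (right) of the liver diet comparison with all 6 livers (black) and without each liver in turn (blue triangles without a control liver, red squares without a No-Trp liver). The fold changes of Nampt stay between 0.53 and 0.78, while its adjusted p lies between 0.0288 and 0.152, and most points lie right of the dashed line at 0.05.

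In the HCC53N xenografts, 0 of the 10 genes passed edgeR's test, against 0.374% of 14704 genes, and 2 had an unadjusted p under 0.05 (Nadk and Nadk2), near the 16.9% of all genes that did. DESeq2 also called 0. The median log2 fold change was -0.09, against 0 for all genes. Nadk was at 183, 134 and 181 CPM in control xenografts 41, 43 and 40 and at 199, 254 and 265 CPM in No-Trp xenografts 35, 36 and 37, without overlap (log2 fold change 0.51, SE 0.184, adjusted p = 0.222). Nadk2 was at 45.5, 44.7 and 36.4 CPM and at 32.5, 28.7 and 23.5 CPM, also without overlap and in the other direction (log2 fold change -0.60, SE 0.173, adjusted p = 0.157). These were 2 of 10 genes without overlap, against 22.4% of all genes.

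Nampt was at 147, 103 and 106 CPM in control xenografts and at 84.2, 95.9 and 109 CPM in No-Trp xenografts, with overlap (log2 fold change -0.33, SE 0.185, adjusted p = 0.41). Nnmt was at 1.96, 1.82 and 1.12 CPM and at 4.43, 1.38 and 4.82 CPM, from 23 to 121 reads (log2 fold change 1.09, SE 0.53, adjusted p = 0.335). No-Trp xenograft 36 lay among the controls. Nmrk1 was at 7.47, 11.8 and 6.21 CPM and at 7.07, 4.53 and 7.06 CPM (log2 fold change -0.47, adjusted p = 0.517). The other 5 genes had overlapping groups, with log2 fold changes of 0.28 for Nadsyn1, -0.03 for Cd38, -0.08 for Nmnat1, -0.11 for Nmnat3 and -0.18 for Sirt1. With library totals Nmnat1, Nmnat3 and Cd38 changed sign.

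Cd38 was at 26.9, 22.8 and 48.8 CPM in control xenografts and at 37.9, 37.7 and 22.6 CPM in No-Trp xenografts. Its SD was 42.6% of the mean in control xenografts and 14.9% in control livers. Adipocyte markers moved with diet in these tumors. Their sum was 14.3 to 70.1 CPM in control xenografts and 416 to 865 CPM in No-Trp xenografts, and 4 of 7 passed, among them Plin1 and Adipoq. Leukocyte markers summed to 138 to 156 CPM and 172 to 248 CPM, and endothelial markers to 56.3 to 130 CPM and 148 to 245 CPM, both without overlap. No gene of these 2 lists passed edgeR's test (2 of 5 and 2 of 8 tested had an unadjusted p under 0.05), Lyve1 being closest among the endothelial markers (log2 fold change 2.65, adjusted p = 0.0506). Their part in the values above was not tested. Since 2 of the 3 control xenografts and no No-Trp xenograft carry the mark of resubmission, only control xenograft 40 could be set against the No-Trp group without it. The deposited name of this library follows a different scheme, so only its labels give its diet. With the mark as a covariate, 0 of the 10 had an unadjusted p under 0.05 in edgeR.

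**Figure D3:**
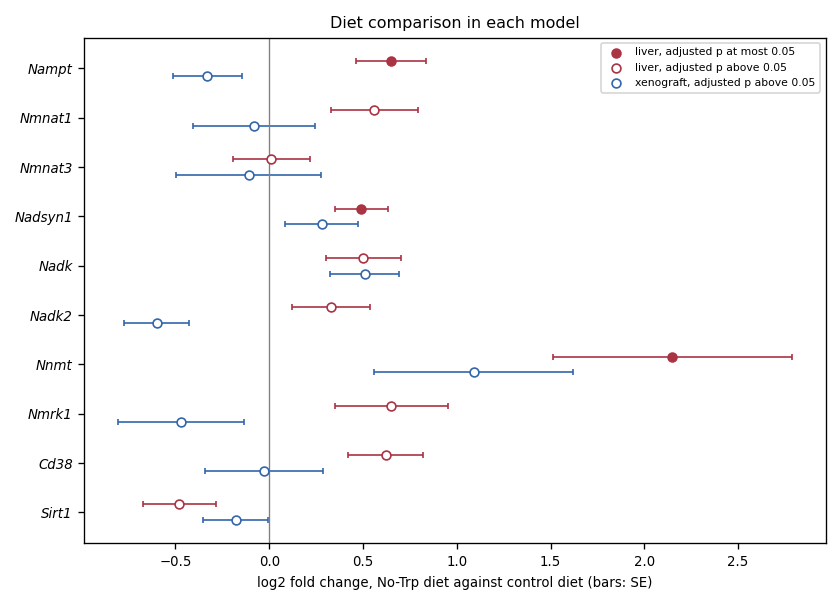
Log2 fold change of the No-Trp diet against the control diet (horizontal axis, bars are SE) for the 10 genes in livers (red) and xenografts (blue), with filled points for an adjusted p of at most 0.05. Nampt, Nadsyn1 and Nnmt are filled in livers, and no point is filled in xenografts.

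The diet effects of the models were compared by the interaction term over all 12 libraries (xenograft effect minus liver effect). Of the 10 genes, 2 passed, against 15.6% of 15472 genes. Nampt differed by -0.95 on the log2 scale (SE 0.259, adjusted p = 0.0314), with values of 0.65 in livers and -0.33 in xenografts. Nadk2 differed by -0.91 (SE 0.262, adjusted p = 0.038), with values of 0.33 and -0.60, of which neither passed alone. Of 12 fits that left out 1 library, Nampt passed in 6 and Nadk2 in 5. Nmrk1 had a difference of similar size, -1.09 (SE 0.452), that did not pass (adjusted p = 0.117). The others did not pass either, with differences of -1.03 for Nnmt, -0.62 for Cd38, -0.61 for Nmnat1, -0.19 for Nadsyn1, -0.09 for Nmnat3, 0.04 for Nadk and 0.32 for Sirt1. The sign of Nadsyn1, Nmnat3, Nadk and Nnmt turned under other settings. For Nadk the interval ran from -0.53 to 0.61. With library totals in place of composition factors, 0 of the 10 passed, and the median of all genes moved from 0.03 to 0.41.

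Xenografts were then set against livers on each diet. On the control diet 8 of the 10 passed, 7 of them lower in xenografts, against 59.5% of all genes and 28.7% lower. Nmrk1 had a log2 fold change of -2.53 (SE 0.335, adjusted p = 4.5e-05) and Nadk2 of -2.19 (SE 0.193, adjusted p = 1.5e-06). Nadsyn1 (-1.41), Nmnat1 (-1.40), Nadk (-0.78), Nampt (-0.67) and Sirt1 (-0.65) followed. Cd38 was the only one of the 10 that passed and was higher in xenografts (log2 fold change 1.25, SE 0.291, adjusted p = 0.00273). Nmnat3 (-0.34) and Nnmt (0.60) did not pass. Against these values 10 of 10 hepatocyte markers were lower, with a median log2 fold change of -5.54, and the part of hepatocyte content was not tested.

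On the No-Trp diet 6 of the 10 passed, all lower in xenografts, against 59.6% of all genes and 26.4% lower. They were Nmrk1 (-3.62), Nadk2 (-3.10), Nmnat1 (-2.01), Nampt (-1.62), Nadsyn1 (-1.60) and Nadk (-0.73). The median of all genes in this comparison was 0.15. Cd38 had a log2 fold change of 0.63 (adjusted p = 0.0741) and Sirt1 of -0.33 (adjusted p = 0.131), and Nmnat3 and Nnmt were both at -0.43 and did not pass. With library totals the value of Nadk was -0.19 (adjusted p = 0.392), and on the control diet Nadk and Sirt1 did not pass without the marked libraries (adjusted p = 0.0701 and 0.0686). Cd38 on the No-Trp diet passed with library totals (log2 fold change 1.17, adjusted p = 0.00504), without No-Trp xenograft 37 (adjusted p = 0.03) and without control xenograft 40 (adjusted p = 0.0289), and Nmnat3 passed without No-Trp xenograft 35 (log2 fold change -0.93, adjusted p = 0.0204). Both comparisons use the same model fit, and the diet effects above share these libraries.

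**Figure D4:**
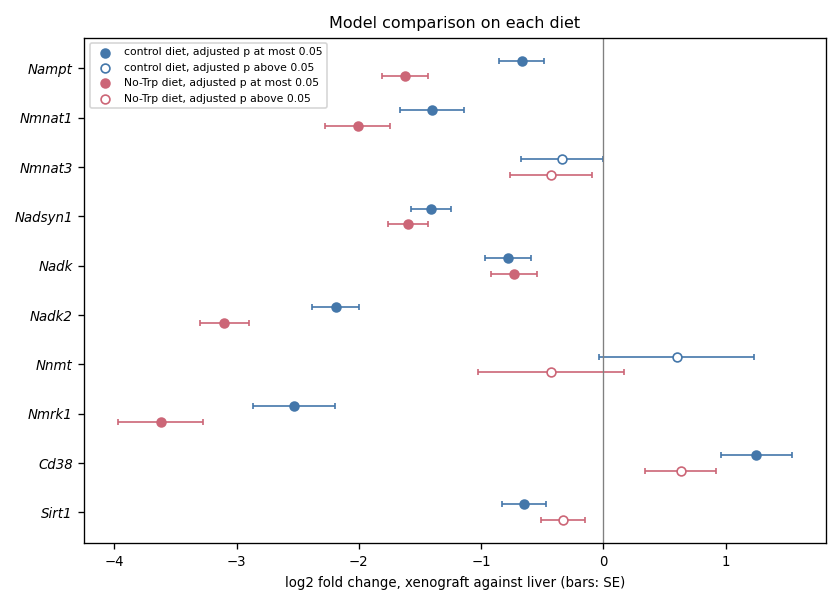
Log2 fold change of xenografts against livers (horizontal axis, bars are SE) for the 10 genes on the control diet (blue) and the No-Trp diet (red), with filled points for an adjusted p of at most 0.05. Nmrk1 and Nadk2 lie farthest to the left, at -2.53 and -2.19 on the control diet, and Cd38 lies to the right.

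Levels were compared between genes as CPM per kilobase of exon. Nadk was the highest in all 4 groups, with means of 75.8 ± 12.7 (SD, n = 3) in control livers, 105 ± 12.4 in No-Trp livers, 44.2 ± 7.37 in control xenografts and 63.9 ± 9.39 in No-Trp xenografts. In control livers Nadk2 (37.7) and Nampt (37.4) followed, with overlapping ranges, then Nadsyn1 (14.8) and Nmrk1 (13.2), which also overlapped. Sirt1 (6.45), Nmnat1 (3.85), Cd38 (3.54), Nmnat3 (2.37) and Nnmt (0.691) were the lower end, and among these only Nmnat1 and Cd38 overlapped as neighbours. In control xenografts Nampt (23.5) was next after Nadk, and Cd38 (8.44) and Nadk2 (8.24) overlapped behind it. The order depended on the length used. With the longest transcript in place of all exons, Nmrk1 (25.2) stood above Nadsyn1 (18.6), and Nmnat3 (5.49) above Nmnat1 (4.40) and Cd38 (4.22), in control livers. The spread among mice was 9.17% to 40.7% of the mean in control livers and 6.01% to 80.6% in No-Trp livers, the highest for Nnmt.

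Related genes of NAD+ metabolism were read in the same fits, beside the 25.3% of all genes that passed in livers. Of 7 tested genes of a list around the Preiss-Handler and salvage routes, 4 passed, all higher. They were Nudt12 (log2 fold change 1.76), Naprt, listed as Naprt1 (1.41), Naxe, listed as Apoa1bp (0.78), and Naxd, listed as Carkd (0.69). Of these 4 only Naprt acts on a route to NAD+, which it starts from nicotinic acid, and Naxe and Naxd repair damaged NAD(P)H. Of 9 genes of the route from Trp, 2 passed, Tdo2 (4.14, adjusted p = 0.0342) and Afmid (2.19). Tdo2, the liver enzyme that opens the Trp ring, was at 28.3, 347 and 34.6 CPM in control livers 101, 102 and 103 and at 1980, 2950 and 2140 CPM in No-Trp livers, so control liver 102 lay far above the other controls. Without it the log2 fold change was 6.23 for Tdo2 and 2.99 for Afmid. When each liver was left out in turn, Tdo2 passed in 1 of 6 fits (3.66 to 6.23) and Afmid in 2 of 6 (1.67 to 2.99).

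Of 6 other sirtuins, 3 passed, all higher: Sirt3 (0.88), Sirt2 (0.81) and Sirt7 (0.80). Sirt1 had the opposite sign, at -0.48, and did not pass. Of 15 ADP-ribosyltransferases, 2 were higher and 3 lower, with Parp4 (1.76) and Parp3 (1.47) higher and Parp1 (-1.22) and Parp2 (-0.88) among the lower. Parp1, the main DNA damage sensor of the family, was at 263, 310 and 356 CPM in control livers and at 157, 103 and 133 CPM in No-Trp livers, without overlap. Of 2 other NAD glycohydrolases, Sarm1 was lower (-1.35). Of 5 tested transporters, Slc29a1 (0.67) and Slc25a51 (0.46) were higher and Slc29a2 (-1.47) lower. Aox1 (2.66) and Noct, listed as Ccrn4l (0.88), were higher among 4 genes of nicotinamide clearance and NADP phosphatases. Each passed in 1 of 6 fits that left out a liver, and Aox1 was at 4.2 without control liver 102. The other named genes of these lists also lost calls in such fits, from Naxd and Slc25a51, which passed in 0 of 6, to Parp4, which passed in 5 of 6. In xenografts no gene of these lists passed edgeR's test. The unadjusted p was under 0.05 for 2 of 8 genes of the salvage list, 1 of 6 sirtuins and 4 of 15 ADP-ribosyltransferases, against 16.9% of all genes.

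Nampt is a known target of the circadian clock, so clock genes were read beside it. In livers 8 of 14 tested passed, all higher, against 25.3% of all genes. They were led by Dbp (2.63), Per3 (2.21), Ciart (1.73) and Tef (1.62). Dbp was at 4.13, 11.8 and 6.33 CPM in control livers and at 41.7, 61.8 and 31.4 CPM in No-Trp livers. Each of these 4 genes passed in 3 of 6 fits that left out a liver, and Per3 was at 2.80 without control liver 102. Among the clock genes that did not pass in livers, Bmal1, listed as Arntl, was at 0.12 (adjusted p = 0.795). Clock was at 0.27 (adjusted p = 0.281). In xenografts 0 of 15 passed edgeR's test and 2 had an unadjusted p under 0.05. The paper's methods do not state the hour of tissue collection, and its part in these values was not tested.

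**Figure D5:**
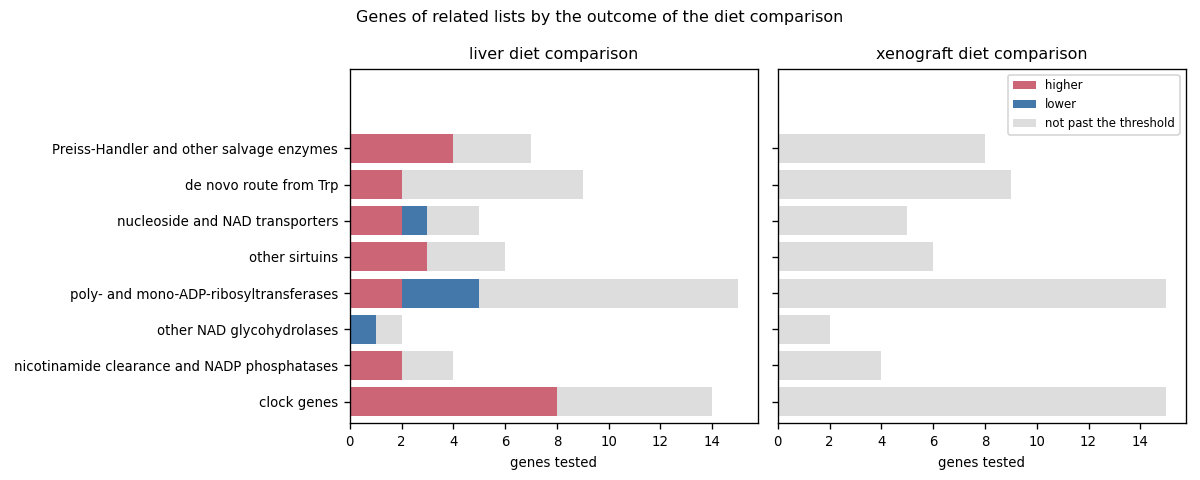
Number of tested genes (horizontal axis) of each related list that were higher, lower or not past an adjusted p of 0.05 in the liver (left) and xenograft (right) diet comparison. The clock list has 8 higher genes in livers, and no gene passes in xenografts.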

How the data were processed

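Per the labels and methods, the authors trimmed reads with Trim Galore, aligned them to mm10 with STAR 2.7.2b, and counted them on genes with HTSeq. The deposited values are whole read counts per gene, not normalized. Strand setting is not given in the sources used here. Reads left uncounted (24.7% to 39.4%) stayed out of library sizes.

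In R 4.3.3, edgeR 4.0.16 fitted the counts (filterByExpr, TMM scaling, two-sided glmQLFTest after a robust glmQLFit), with 6 libraries for each diet comparison and 12 for the interaction and model comparisons. P-values were adjusted by Benjamini-Hochberg over all genes tested, and a gene passed at an adjusted p of at most 0.05. SE is the log2 fold change divided by the root of F. CPM used TMM over 12 libraries, and lengths came from GENCODE M21 (GRCm38). The fits were tested on simulated data with the same dispersion for all genes and no outlying mouse. The limit for false calls was looser than the 0.05 used for adjusted p. Since these data differ from that setting, the simulation does not measure the false calls among them. Estimates, signs and false calls met their limits, but the interaction recovered clearly fewer of the planted changes than the other comparisons. A minimum on recovery that it missed was then dropped, so a difference between models that did not pass may have been missed. Alternatives were DESeq2 1.42.0, other scalings and filters, the resubmission mark, Rn45s, and leaving out each library.

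All 10 genes were named in every comparison. From each other list at most the 4 passing genes with the largest change, or the gene of lowest p, were open to naming. Nr1d2, Bmal1 and Clock were named after their values were seen. The members and lists were chosen with earlier results of these data known. P-values measure the spread between mice. Counting error is larger for low genes, such as Nnmt (15 to 121 reads) and Nmnat1 in xenografts (54 to 136 reads), and intervals cover the fitted error only.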

Additional observations from a re-analysis of the deposited data

Results flagged for a closer look

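The following results differed between the models by the interaction term (xenograft diet effect minus liver diet effect, edgeR, adjusted p at most 0.05). Nampt differed by -0.95 and Nadk2 by -0.91 on the log2 scale. Among related genes, Naxe differed by -1.05, Naxd by -0.88, Tdo2 by -4.84, Sirt7 by -0.87, Parp4 by -1.03 and Aox1 by -3.16, each with a lower diet effect in xenografts. Parp1 differed by 1.51 and Parp2 by 1.13, with a higher diet effect in xenografts. Of the 15 clock genes tested, Dbp differed by -3.31, Per3 by -2.84 and Tef by -2.14. Nr1d2, the last of the 4 clock genes that passed, differed by -1.42 (adjusted p = 0.0147). These differences of related and clock genes were not refitted under the alternatives. The interaction term was passed by 2 of 8 genes of the salvage list, 1 of 9 of the route from Trp and 1 of 6 sirtuins. Of 15 ADP-ribosyltransferases 2 passed as higher and 1 as lower, and 1 of 4 clearance genes passed. It was passed by 0 of 5 transporters and 0 of 2 other glycohydrolases. Over all genes 15.6% passed this term. Strain, site and cell line differ together between the models, as does sex where hosts were female, and cannot be told apart.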

How the results depend on the processing

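No paired analysis was possible because no groups share animal numbers. Of the 10 genes, 3 passed in livers, and this count was 1 with the fold threshold added, 1 with library totals (Sirt1, -0.79), 1 with no filter on low counts (Nnmt), and 0 with only libraries without the mark of resubmission. It was 4 with DESeq2 and 4 with the covariate, where Cd38 joined the 3. Leaving out each library gave 0 to 2. Over all genes the liver count was 3570, or 2337 with the fold threshold, 4799 with DESeq2, 4076 with the covariate, 4654 in one fit over all 12 libraries and 0 without the marked libraries, and 8 (without control liver 103) to 4168 when each was left out. The xenograft count over all genes was 55, or 89 with RLE factors, 148 with no filter, 15 with at least 10 counts in every library, 638 with DESeq2, 4 with the covariate, 0 without the marked libraries, 95 without Rn45s, 23 in one fit over all 12 libraries, and 9 to 81 when each library was left out. Where only control xenograft 40 remained, it was assumed to vary like the other group.

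For the interaction, the count of 2 fell to 0 with the fold threshold, with library totals and without the marked libraries, and was 0 to 2 when each library was left out; over all genes 2420 passed, or 15 without the marked libraries and 967 to 2960. On the control diet the count of 8 between models was 5 with the fold threshold, and over all genes 9202 became 5982 without the marked libraries. Library totals moved the median of all genes to -0.30 in livers, where the 10 genes had a median of 0.23, and to 0.68 between models on the No-Trp diet. They moved the share of higher calls from 52.5% to 30.9% in livers, from 65.5% to 85.7% in xenografts, from 52.7% to 80.2% in the interaction and from 55.7% to 74.8% between models on the No-Trp diet. Library totals leave out the composition factors. Over all 12 libraries these were 0.905, 0.955 and 1.08 in control livers and 0.871, 0.687 and 0.873 in No-Trp livers. In xenografts they were 1.08 to 1.21. Why the factors differed was not tested.

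Some changes that had not passed turned direction. In livers Nmnat3 was -0.29 with library totals, -0.02 without the marked libraries and 0 in one fit, and -0.05 to 0.12 when each library was left out. In xenografts library totals gave Nmnat1 0.04, Nmnat3 0.01 and Cd38 0.09. The covariate gave Nmnat3 0.08, Nt5e 0.04 and Epb4.2 -0.02, and leaving out the marked libraries gave the same values, 0.08, 0.04 and -0.02. Leaving out each library gave Nmnat1 -0.25 to 0.03, Nmnat3 -0.6 to 0.18, Cd38 -0.23 to 0.37 and Slc29a3 -0.06 to 0.33. The interaction of Nadk was -0.05 with RLE factors and DESeq2, -0.1 with the covariate, -0.03 without the marked libraries and -0.09 to 0.16 when each library was left out. That of Nmnat3 was 0.3 with library totals, 0.1 without the marked libraries and -0.59 to 0.2, of Nadsyn1 0.17 with library totals, and of Nnmt 0.32 without the marked libraries. Between models on the No-Trp diet, library totals gave Nmnat3 0.13, Nnmt 0.06 and Sirt1 0.23. Nnmt was 0.13 with the covariate, 0.47 without the marked libraries and -0.77 to 0.46 when each library was left out.

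The order of the genes turned in places with the length of the longest transcript, where levels per kilobase in control livers were 5.49 for Nmnat3, 4.40 for Nmnat1, 18.6 for Nadsyn1, 90.1 for Nadk, 46.7 for Nadk2, 1.04 for Nnmt, 25.2 for Nmrk1, 4.22 for Cd38 and 7.76 for Sirt1.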
